A study of Mus musculus with 6 samples.

Results

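The genes that write, read and erase cytosine methylation were described in TuBo cells without and with p140Cap. The 10 genes are Dnmt1, Dnmt3a, Dnmt3b, Uhrf1, Uhrf2, Hells, Tet1, Tet2, Tet3 and Tdg. They were chosen by symbol, and all 10 were found among the 21960 genes of the deposited counts and among the 11800 genes with enough reads for a test. In p140Cap cells the maintenance genes Hells, Uhrf1 and Dnmt1 fell, as did Uhrf2, Dnmt3b and Tdg, whereas Dnmt3a and the 3 Tet genes rose. Hells fell to 35.4% of its mock level and Tet2 rose 2.32-fold, and these were the 2 members that changed by at least 1 log2 unit.

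TuBo cells derive from a tumor of the mammary gland in a BALB/c mouse with the MMTV-NeuT transgene, an activated rat Her2/neu oncogene driven by a mouse mammary tumor virus promoter, so both groups carry that transgene. RNA was sequenced from 3 mock libraries, whose genotype the labels give as wt, and from 3 libraries of cells overexpressing p140Cap from a pBabe-puro retrovirus. The p140Cap cells were selected with puromycin, grown from single cells and pooled as clones. Whether mock cells passed through the same steps is not stated. The labels speak of cell lines in one place and of mice in another, and do not say whether the 3 libraries of a group came from separate cultures. The p-values therefore measure the spread between these libraries, which may be technical.

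In mammals, methyl groups sit mostly on cytosines followed by guanine (CpG). When DNA is copied the new strand lacks them, UHRF1 binds the sites methylated on 1 strand and brings in DNMT1, which methylates the other strand, and the chromatin remodeler HELLS opens nucleosomal DNA to this machinery. DNMT3A and DNMT3B place new methyl groups, TET enzymes oxidize them, and the glycosylase TDG cuts out the most oxidized forms so that base excision repair can restore plain cytosine. Methylation itself was not measured here, only the RNA of these genes.

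The libraries held between 13770385 and 75506562 reads on genes, and every mock library was deeper than every p140Cap library. Levels are given as CPM, that is, reads of a gene scaled to a common library total, after edgeR's TMM scaling, and differences as log2 fold changes with their standard error (SE). Srcin1, the gene of p140Cap, rose from 15.0 ± 1.96 to 2343 ± 153 CPM (SD, n = 3). Of 6 mammary epithelial markers 5 were tested and 4 of them rose, with a summed level of 4863 to 5174 CPM in mock and 5836 to 5963 CPM in p140Cap libraries. Of 6 leukocyte markers, 5 had no read in any library and the other had 1 read. Of 6 fibroblast markers, 4 had no read in any library and 2 were tested, of which Col1a1 rose (log2 fold change 0.80, edgeR adjusted p = 0.000244), and the summed level was 9.93 to 10.5 CPM in mock and 11.3 to 14.1 CPM in p140Cap libraries. Of 4 endothelial markers, 2 had no read in any library and Pecam1, the 1 tested, rose (log2 fold change 1.25, edgeR adjusted p = 0.0133), with a summed level of 0.15 to 0.427 and 0.477 to 0.734 CPM. The part of these markers in the results on the members was not tested.

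Of the 10 members, 6 were called lower and 4 higher in p140Cap cells, at a threshold of 0.05 on the adjusted p. Among all 11800 genes tested, 35.9% were called lower and 35.2% higher, so being called was common in this comparison. A change of at least 1 log2 unit was rarer, at 9.97% of genes, and Hells and Tet2 made up 2 of 10 members. The CPM ranges of the groups did not overlap for any of the 10 members, against 73.4% of all genes. The median log2 fold change was −0.25 over the members and −0.00 over all genes. In RNA from whole cultures, fewer cells using a gene and less RNA of it per cell cannot be told apart.

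**Figure D1:**
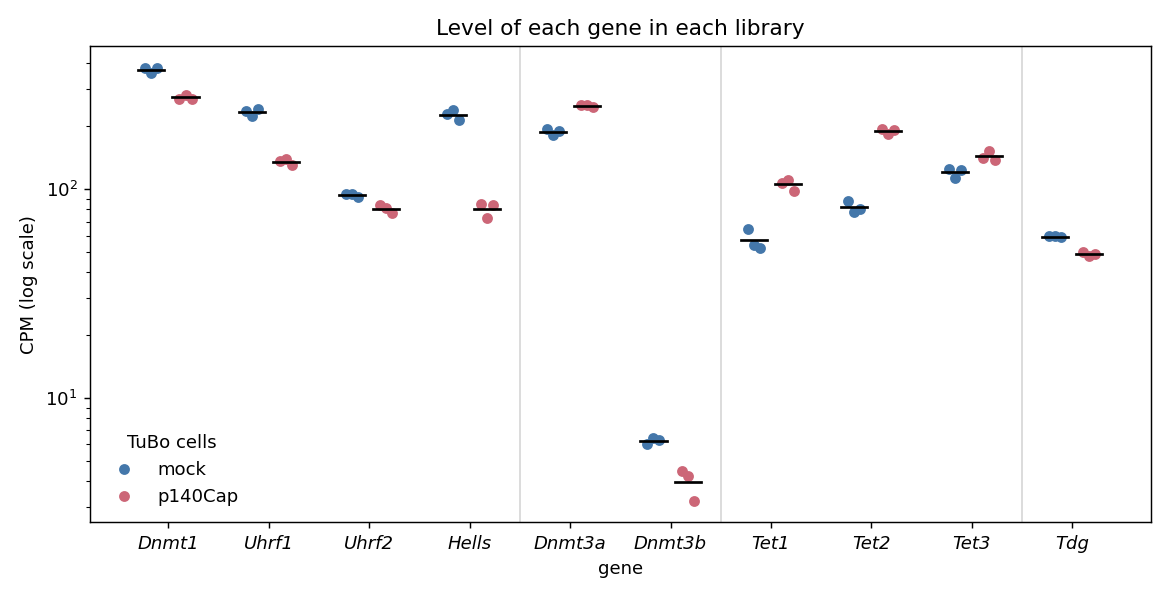
Level of each member in CPM (vertical axis, log scale) in the 3 mock and 3 p140Cap libraries, with points for libraries and a bar for the group mean. The groups are apart for every gene, with the widest gaps for Hells (227 against 80.5 CPM) and Tet2 (82.0 against 190 CPM).

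Hells (ENSMUSG00000025001), the remodeler of the SNF2 family also known as LSH, had the largest change of the 10. It lies on chromosome 19 of GRCm38.p6, from 38930262 to 38970470 on the plus strand, and overlaps no other annotated gene. Its level was 228.0, 239.5 and 213.7 CPM in the mock libraries and 85.35, 72.47 and 83.66 CPM in the p140Cap libraries. The lowest mock library was thus well above the highest p140Cap library. The log2 fold change was −1.50 (SE 0.06, edgeR adjusted p = 5.62e-12), at position 262 of 11800 from the lowest. Chromosome 19 as a whole was lower in p140Cap cells, where the median over 424 tested genes was −0.34 on the log2 scale and 79.7% were lower, while the medians of the other 19 chromosomes with tested genes lay between −0.07 and 0.07. On chromosome 19, 18 genes, or 4.25%, lay at or below Hells, itself included. The part of this chromosome-wide difference in the result was not tested.

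Uhrf1 (ENSMUSG00000001228), which reads hemimethylated CpG and is a ubiquitin ligase, fell to 57.7% of its mock level. The gene spans 56303337 to 56323486 on the plus strand of chromosome 17 and overlaps no other annotated gene. Mock libraries had 237.1, 224.6 and 243.1 CPM and p140Cap libraries 136.0, 139.2 and 131.1 CPM. The libraries of each group lay close together and the gap between groups was many times their spread (log2 fold change −0.79, SE 0.05, edgeR adjusted p = 4.95e-10). Its paralog Uhrf2 (ENSMUSG00000024817; chromosome 19, 30030430 to 30093726, plus strand), which does not replace UHRF1 in maintenance, changed less. It had 95.26, 95.19 and 91.56 CPM in mock and 84.43, 80.99 and 76.83 CPM in p140Cap libraries, with a log2 fold change of −0.22 (SE 0.05, edgeR adjusted p = 0.000958). This decrease was smaller than the median decrease of chromosome 19.

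Dnmt1 (ENSMUSG00000004099), the maintenance methyltransferase, was the most abundant member by reads in both groups. It lies on the minus strand of chromosome 9 from 20907206 to 20959888. Its level was 378.2, 360.6 and 381.9 CPM in mock and 271.3, 283.5 and 271.5 CPM in p140Cap libraries, a fall to 73.7%. Every p140Cap library was below every mock library, but the change was smaller than those of Hells and Uhrf1 (log2 fold change −0.44, SE 0.05, edgeR adjusted p = 3.44e-07).

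The promoters of these 3 maintenance genes, which fell by unequal amounts, were read next. RefSeq windows of GRCm38.p6, from 250 bases before to 50 after a start site, were found for all 10 members. Where a gene has several start sites, the window with the most CpG was taken. Each sequence is printed 5′ to 3′ on the strand of the gene. The 8-letter forms TTTCCCGC, TTTGGCGC, TTTCGCGC and TTTGCCGC of the E2F consensus, bound by a factor family that drives S phase genes, were searched on both strands, a choice made after the windows had been seen. Capitals mark a match, and a gene on the minus strand is shown reversed and complemented. The window of Tet2, the member that rose most, is shown for contrast. The windows lie at chr9:20952574-20952873 (minus strand) for Dnmt1, chr17:56304063-56304362 (plus) for Uhrf1, chr19:38930740-38931039 (plus) for Hells and chr3:133544341-133544640 (minus) for Tet2.
Dnmt1: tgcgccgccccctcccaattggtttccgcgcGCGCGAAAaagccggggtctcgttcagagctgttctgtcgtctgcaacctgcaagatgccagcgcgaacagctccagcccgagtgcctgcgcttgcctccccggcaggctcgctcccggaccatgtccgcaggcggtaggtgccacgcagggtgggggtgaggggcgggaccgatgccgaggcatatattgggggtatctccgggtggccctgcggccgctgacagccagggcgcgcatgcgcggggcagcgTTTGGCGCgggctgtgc
Uhrf1: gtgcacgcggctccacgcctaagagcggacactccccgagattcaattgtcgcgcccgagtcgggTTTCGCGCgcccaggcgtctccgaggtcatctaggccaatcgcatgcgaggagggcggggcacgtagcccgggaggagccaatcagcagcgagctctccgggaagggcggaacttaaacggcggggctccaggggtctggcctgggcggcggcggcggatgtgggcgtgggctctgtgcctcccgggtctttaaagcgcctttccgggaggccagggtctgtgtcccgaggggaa
Hells: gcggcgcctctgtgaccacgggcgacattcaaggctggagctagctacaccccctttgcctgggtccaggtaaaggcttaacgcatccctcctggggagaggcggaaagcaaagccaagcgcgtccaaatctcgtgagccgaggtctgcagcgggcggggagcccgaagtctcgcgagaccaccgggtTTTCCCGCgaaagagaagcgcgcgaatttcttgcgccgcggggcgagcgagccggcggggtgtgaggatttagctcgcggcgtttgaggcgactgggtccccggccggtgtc
Tet2: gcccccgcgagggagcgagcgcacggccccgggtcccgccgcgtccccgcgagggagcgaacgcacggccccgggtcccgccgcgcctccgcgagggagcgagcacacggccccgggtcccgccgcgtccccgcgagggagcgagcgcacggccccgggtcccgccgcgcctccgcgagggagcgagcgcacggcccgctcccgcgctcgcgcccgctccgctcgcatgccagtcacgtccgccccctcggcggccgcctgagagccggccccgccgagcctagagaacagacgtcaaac

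Dnmt1 held 2 matches. TTTCGCGC lay on the opposite strand, and the stretch it covers, read along the gene, began 219 bases before the start site. TTTGGCGC began 33 bases after that site. Uhrf1 held TTTCGCGC 185 bases before the start and Hells held TTTCCCGC 62 bases before it. The other 2 windows of Dnmt1 and the other 1 of Uhrf1 held none. None was found for the other 7 members, among them Uhrf2, Dnmt3b and Tdg, which also fell, and Tet2. Of 32851 RefSeq promoter windows, 2.26% held at least 1 of the 4 forms, and of those with at least 20 CpG, 5.15% did. With 1 window per gene, that with the most CpG, the share was 2.39% of 27025 genes. A match is a description of the letters and not a binding site, and these forms leave out other sequences that E2F factors bind. The Tet2 window held 57 CpG and that of Dnmt3a 47, against a median of 7 over all windows, and those of Hells, Dnmt1 and Uhrf1 held 34, 33 and 33. That median counts every window, whereas Dnmt3a, Dnmt1 and Uhrf1 were represented by the richest of their 3, 3 and 2 windows. The 17 CpG of Tet1 were the fewest among the members.

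Of the methyltransferases that place new methyl groups, Dnmt3a rose and Dnmt3b fell. Dnmt3a (ENSMUSG00000020661; chromosome 12, 3801559 to 3914443, plus strand) had 193.9, 182.0 and 189.5 CPM in mock and 253.3, 251.6 and 248.2 CPM in p140Cap libraries. The p140Cap libraries differed from each other by little and all exceeded the mock libraries, a 1.33-fold rise (log2 fold change 0.41, SE 0.05, edgeR adjusted p = 5.21e-07). Dnmt3b (ENSMUSG00000027478; chromosome 2, 153649411 to 153687730, plus strand) was scarce, with 6.037, 6.437 and 6.276 CPM in mock and 4.482, 4.223 and 3.232 CPM in p140Cap libraries. It rested on 462, 256 and 209 reads in mock and on 68, 62 and 44 reads in p140Cap libraries. It had the widest relative spread of the members in p140Cap cells, 16.6% of its mean, and its log2 fold change was −0.64 (SE 0.13, edgeR adjusted p = 0.000235). Dnmt3l, the catalytically inactive partner of both enzymes, had no read in any library, which allows at most 0.0203 CPM in the pooled mock and 0.0681 CPM in the pooled p140Cap libraries (3 reads, counting error only). Both genes overlap annotated antisense genes (Dnmt3aos and Dnmt3bos), and no source used here states whether counting was stranded.

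All 3 Tet genes rose, by unequal amounts. Tet2 (ENSMUSG00000040943; chromosome 3, 133463677 to 133545136, minus strand), which has no CXXC domain of its own, had 87.43, 77.87 and 80.6 CPM in mock and 195.0, 182.7 and 192.9 CPM in p140Cap libraries. Its lowest p140Cap library was thus far above its highest mock library (log2 fold change 1.21, SE 0.05, edgeR adjusted p = 9.49e-12), at position 399 of 11800 from the highest. Tet1 (ENSMUSG00000047146; chromosome 10, 62804570 to 62887469, minus strand) had 64.21, 54.33 and 52.28 CPM in mock and 106.5, 111.2 and 98.49 CPM in p140Cap libraries. The first mock library was the highest of its group, and the groups remained apart with a 1.84-fold rise (log2 fold change 0.88, SE 0.07, edgeR adjusted p = 1.06e-08). Tet3 (ENSMUSG00000034832; chromosome 6, 83362373 to 83457208, minus strand) had 125.3, 113.0 and 122.9 CPM in mock and 140.5, 152.4 and 137.2 CPM in p140Cap libraries. The change of Tet3 was the smallest of the 3, at 1.19-fold (log2 fold change 0.25, SE 0.05, edgeR adjusted p = 0.00057). Each of the 3 genes overlaps other annotated genes, among them Bola3 at Tet3.

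Tdg (ENSMUSG00000034674; chromosome 10, 82629814 to 82650799, plus strand), the glycosylase downstream of the TET enzymes, did not move with them. It had 59.44, 59.66 and 58.89 CPM in mock and 49.89, 48.09 and 48.77 CPM in p140Cap libraries. The SD was 0.674% of the mean in mock and 1.86% in p140Cap libraries, and the groups were apart (log2 fold change −0.28, SE 0.05, edgeR adjusted p = 9.869e-05). It overlaps Glt8d2 and Uqcc6 on the other strand.

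**Figure D2:**
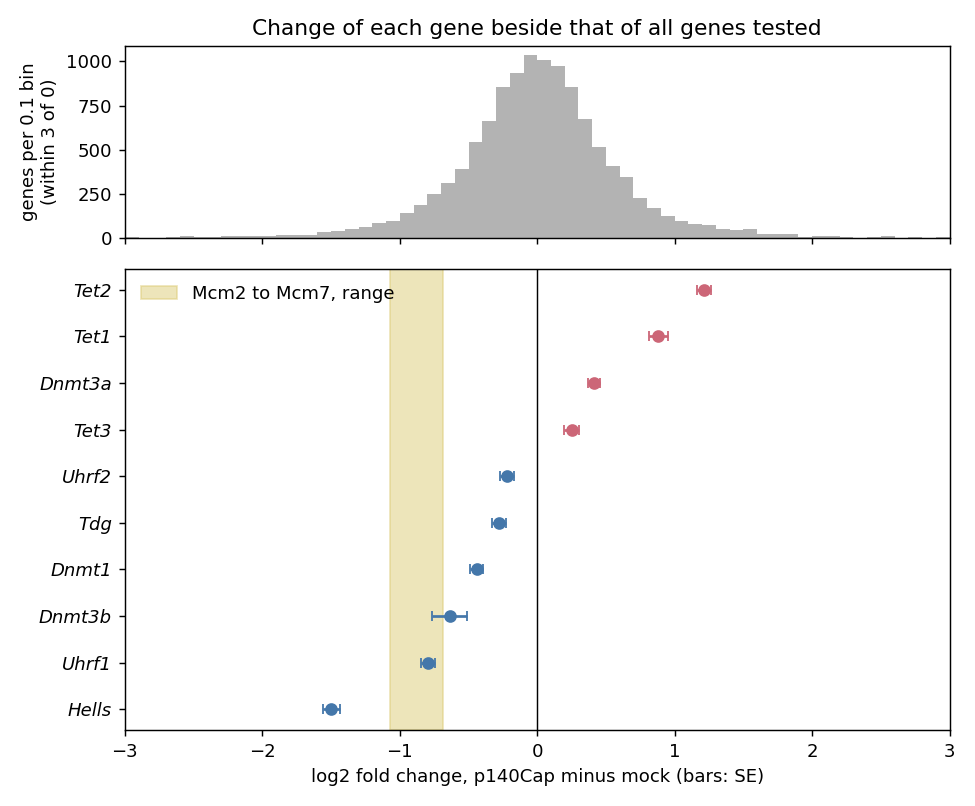
Upper panel: number of genes tested per bin of 0.1 log2 units, drawn within 3 units of 0. Lower panel: log2 fold change (p140Cap against mock, horizontal axis) of each member with its SE, in red where higher and blue where lower, with the range of Mcm2 to Mcm7 shaded. The members run from Hells at −1.50 to Tet2 at 1.21, and the median of all genes is at −0.00.

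Levels were compared between genes after division by the length of the canonical transcript, as CPM per kb. In mock cells Uhrf1 (64.6 ± 2.60) and Dnmt1 (63.0 ± 1.92) led and overlapped each other, followed by Hells (35.4), Uhrf2 (22.4), Tet3 (20.3), Dnmt3a (19.3), Tdg (8.98), Tet2 (8.37), Tet1 (4.07) and Dnmt3b (1.47). The ranges of Tet3 and Dnmt3a overlapped, as did those of Tdg and Tet2. In p140Cap cells the order was Dnmt1 (46.5), Uhrf1 (37.3), Dnmt3a (25.7), Tet3 (24.1), Tet2 (19.4), Uhrf2 (19.3), Hells (12.5), Tet1 (7.54), Tdg (7.41) and Dnmt3b (0.935). Here Dnmt3a and Tet3, Tet2 and Uhrf2, and Tet1 and Tdg were neighbors with overlapping ranges. Hells moved from the third to the seventh place, and Tet2 from the eighth to the fifth. With the union of all exons as length, an alternative added after seeing the data, Hells moved from the third to the eighth place and Tet2 from the eighth to the fourth, and Dnmt3a lay above Uhrf2 in mock cells.

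The share of each gene in the summed level of its family is given as a description, with no test. Dnmt1 made up 75.2 ± 0.275% of the summed Dnmt level per kb in mock cells and 63.5 ± 0.615% in p140Cap cells (SD, n = 3), while Dnmt3a went from 23.1 ± 0.294% to 35.2 ± 0.565%. Dnmt3b held 1.75% and 1.28%. Tet3 was the largest Tet share in both groups, at 62.0 ± 1.24% in mock and 47.2 ± 1.63% in p140Cap cells, and Tet2 went from 25.6 ± 0.334% to 38.1 ± 2.06%. With the union of all exons as length, the Tet3 share was 46.5% in mock and 32.9% in p140Cap cells and the Tet2 share 29.8% and 41.1%, so Tet2 rather than Tet3 was then the largest in p140Cap cells. The summed Dnmt level per kb went from 83.8 to 73.2 and the summed Tet level from 32.7 to 51.1. Their log2 ratio was 1.30, 1.39 and 1.39 in mock and 0.51, 0.51 and 0.53 in p140Cap libraries, a difference of −0.84 with no overlap. The exact two-sided permutation test gave p = 0.1, the smallest value that 3 against 3 libraries allow, so this design could not pass 0.05.

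**Figure D3:**
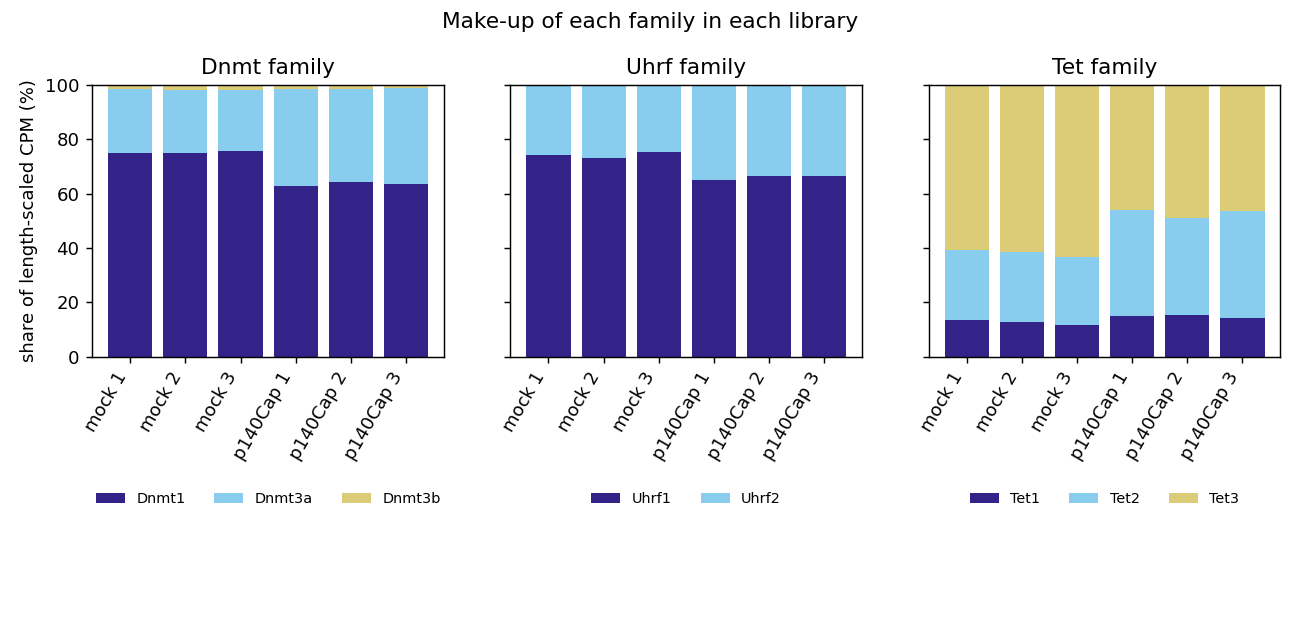
Share of each gene in the summed level per kb of its family (vertical axis, percent, from 0) in each of the 6 libraries, by canonical transcript length. Dnmt3a takes a larger share of the Dnmt level in each p140Cap library (35.2% on average against 23.1% in mock), as Tet2 does of the Tet level.

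Ratios between paralogs in the same library do not depend on library scaling. The log2 ratio of Dnmt3a to Dnmt3b in CPM, not divided by length and so no comparison of their levels, was 4.91 in mock and 5.99 in p140Cap libraries, a difference of 1.08. The log2 ratio of Uhrf1 to Uhrf2 differed by −0.57, that of Tet1 to Tet2 by −0.32, that of Tet1 to Tet3 by 0.64 and that of Tet2 to Tet3 by 0.96. Each of these and the Dnmt to Tet ratio had the smallest exact permutation p, 0.1 (adjusted p = 0.1 over the 6 ratios), and how often ratios of other gene pairs reach it was not computed.

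DNA methylation is maintained behind replication forks, and the level of the replication helicase genes fell in these cells. Mcm2 to Mcm7 had log2 fold changes between −1.07 and −0.68 with a median of −0.99, and all 6 were called lower. Each member was therefore set against their mean log2 level in the same library. The log2 ratio of Hells was −0.06, 0.01 and −0.19 in mock and −0.54, −0.76 and −0.58 in p140Cap libraries, lower by 0.55 log2 units in p140Cap cells. The ratio of Uhrf1 was higher by 0.15 in p140Cap cells, and that of Dnmt1 by 0.51. The ratio of Uhrf2 was higher by 0.73, of Tdg by 0.67, of Dnmt3a by 1.36, of Tet1 by 1.84, of Tet3 by 1.20 and of Tet2 by 2.16. For these 9 genes, 8 higher and Hells lower, the groups did not overlap, each with an exact permutation p of 0.1 (adjusted p = 0.111 over 10 ratios). Of 11794 tested genes other than Mcm2 to Mcm7, 90.3% were higher without overlap by this ratio and 3.45% lower without overlap, so a higher ratio was the common case. The median difference was 0.95 over the 11704 genes with reads in every library. The differences of Dnmt1, Uhrf1, Uhrf2 and Tdg lay below that median and those of Dnmt3a and the Tet genes above it. Dnmt3b differed by 0.28 with overlapping groups (exact permutation p = 0.3), by 0.43 without p140Cap replicate 3 and by 0.19 without p140Cap replicate 1. Whether the share of dividing cells differed between groups was not measured, and its part in the falls of Hells, Uhrf1 and Dnmt1 was not tested.

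**Figure D4:**
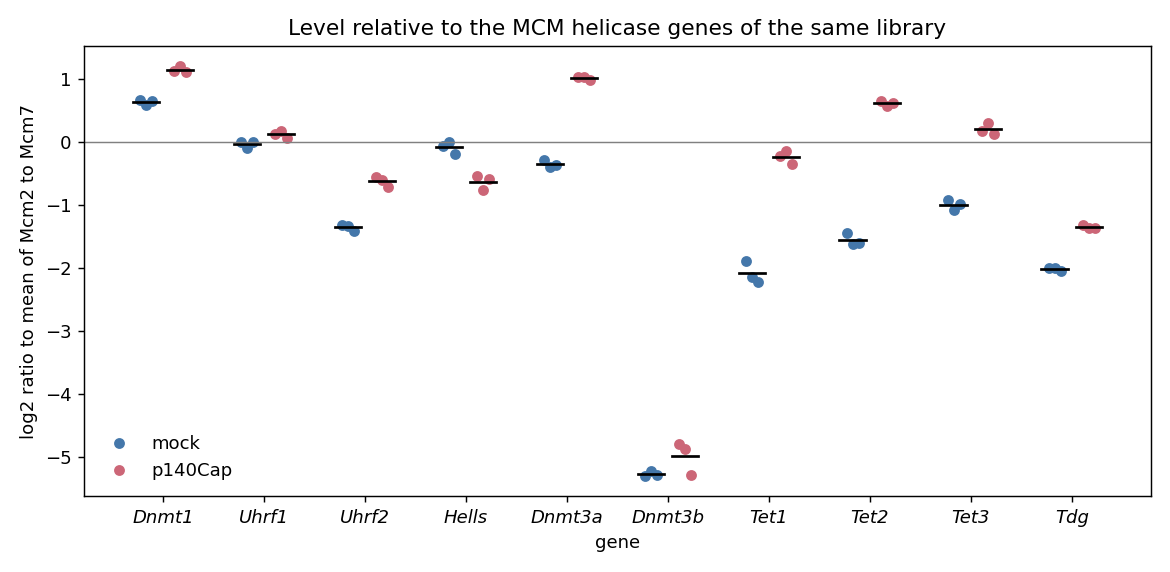
Log2 ratio of each member to the mean of Mcm2 to Mcm7 in the same library (vertical axis) for the 3 mock and 3 p140Cap libraries. Hells is the only member lower in p140Cap libraries (difference −0.55), Uhrf1 lies closest to no difference (0.15), and Tet2 is farthest above (2.16).

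The surroundings of the members were described with 8 lists of 122 genes, of which 118 were among the deposited counts and 83 were tested. In these lists 38 genes (45.8%) were called lower and 24 (28.9%) higher, against 35.9% and 35.2% of all genes, and the median change was −0.11 log2 units.

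Among 12 tested partners of the maintenance machinery, 9 fell, 2 rose and Ehmt1 was not called (log2 fold change −0.08). Cdca7, which recruits HELLS to chromatin, went from 43.9 to 12.5 CPM (log2 fold change −1.81, SE 0.07, edgeR adjusted p = 2.09e-12). Suv39h2, a histone H3 lysine methyltransferase of heterochromatin, changed by −1.13, and Pcna, the sliding clamp that binds DNMT1, by −0.94. Zbtb24, an activator of Cdca7 transcription, rose by 0.33, and Ehmt2, the G9a histone methyltransferase, by 0.29.

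Of 10 tested methyl-CpG readers, 6 rose and 3 fell. Zbtb4, a zinc finger protein that binds methylated CpG, rose most with a log2 fold change of 0.92, followed by Mbd5 (0.49), whose domain resembles that of the methyl-CpG binding proteins, and Zbtb38 (0.36). Mbd3 (−0.29), Mbd4 (−0.27) and Mbd2 (−0.21) fell, of which Mbd2 and Mbd3 are alternative subunits of the NuRD complex and Mbd4 is a glycosylase. Of 7 tested proteins with a CXXC domain, which binds unmethylated CpG, 4 were not called, Cxxc5 (0.40) and Kmt2a (0.23) rose and Cxxc1 (−0.23) fell.

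Of 13 tested genes of base excision repair and of GADD45 proteins, which have been linked to active demethylation, 7 fell and 3 rose. Apex1, the endonuclease that cuts at the abasic site TDG leaves, fell by 0.76 on the log2 scale, Parp1 by 0.49 and the uracil glycosylase Ung by 0.36. The glycosylase Neil1 rose by 0.81, Gadd45a by 0.52 and the scaffold Xrcc1 by 0.17. TET enzymes use 2-oxoglutarate, which isocitrate dehydrogenases make, and are inhibited by succinate and fumarate. Of 10 tested genes, 9 of this metabolism and Ogt, 4 rose and 3 fell, none by as much as Tet2. Ogt, an O-GlcNAc transferase whose protein binds TET2 and TET3, rose from 418 to 632 CPM (log2 fold change 0.60, SE 0.05, edgeR adjusted p = 2.36e-08), Idh1 rose by 0.40 and the succinate dehydrogenase subunit Sdhc by 0.35. Fumarase Fh1 fell by 0.33 and the subunits Sdhb and Sdhd by 0.26 and 0.21.

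The methionine and folate cycles, which supply S-adenosylmethionine for methylation and also thymidylate for DNA synthesis, had the lowest median of the 8 lists, −0.79, with 11 of 16 tested genes lower and 3 higher. Among those that fell, Mthfd1 (−1.37) acts in folate metabolism and Tyms (−1.24) in thymidylate synthesis. Mat2a, which makes S-adenosylmethionine and was singled out after its value was seen, went from 233 to 114 CPM (log2 fold change −1.03, SE 0.05, edgeR adjusted p = 1.8e-11). Ahcyl2 (0.33), Ahcyl1 (0.30) and Mat2b (0.17), the regulatory subunit of the same synthetase, rose.

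Genes whose expression is tied to methylation in cis showed no common direction. Of 26 listed imprinted genes, 22 were among the deposited counts and 13 were tested. Of the tested ones 4 fell, 3 rose and 6 were not called. Mest had 66, 38 and 34 reads in mock and 3 in each p140Cap library (log2 fold change −2.14), Zim1 changed by −0.86 and Usp29 by −0.77. Nap1l5 (0.82), Plagl1 (0.58) and Gnas (0.28) rose. Zim1 and Nap1l5 were also scarce. Zim1 had 74, 51 and 31 reads in mock and 13, 6 and 6 in p140Cap libraries (edgeR adjusted p = 0.0231). Nap1l5 had 35, 15 and 16 reads in mock and 9, 11 and 14 in p140Cap libraries (edgeR adjusted p = 0.0292). The noncoding H19, Kcnq1ot1, Meg3 and Rian were not analysed here. Of 20 germline genes that methylation keeps silent in body cells, 18 had too few reads for a test, with at most 14 reads in a library, and 8 of them had none at all. Brdt, a bromodomain protein of the testis, had 125, 86 and 61 reads in mock and 67, 71 and 76 reads in the shallower p140Cap libraries, and rose (log2 fold change 1.42, SE 0.16, edgeR adjusted p = 4.61e-07). The meiotic gene Sycp1 had a log2 fold change of 0.15 and was not called.

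**Figure D5:**
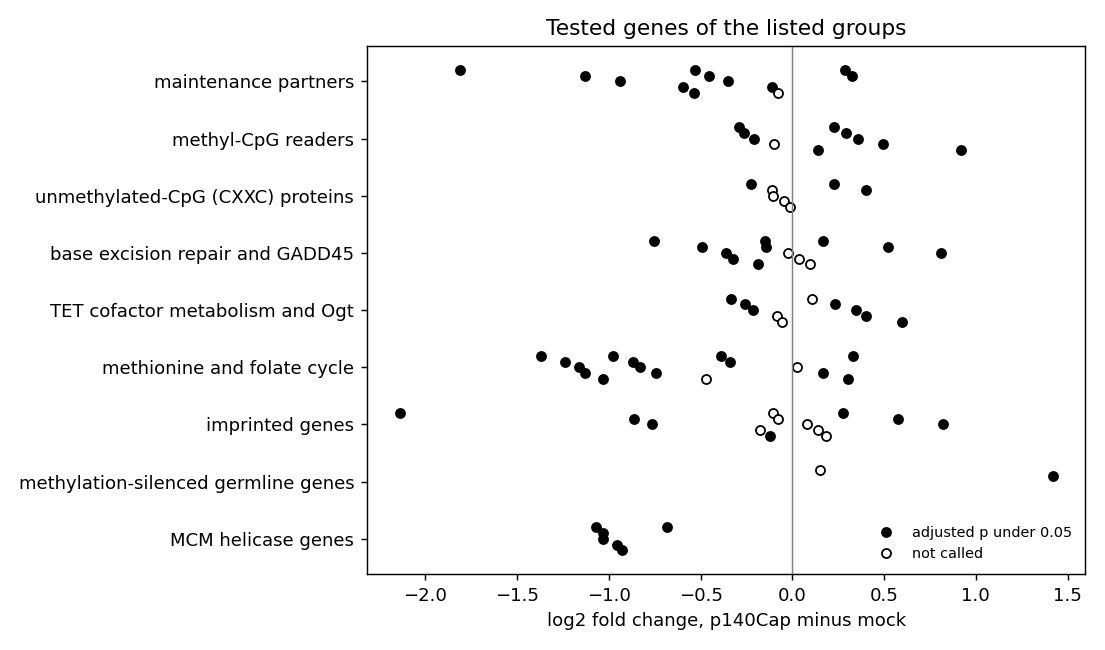
Log2 fold change (p140Cap against mock, horizontal axis) of each tested gene of the 8 lists and of Mcm2 to Mcm7, one line of points per list, with filled points for an adjusted p under 0.05 and open points for genes not called. Maintenance partners and the methionine and folate cycle lie mostly below 0 (medians −0.49 and −0.79), and readers mostly above it (median 0.18).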

How the data were processed

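RNA-Seq of 3 mock and 3 p140Cap libraries of TuBo cells was analysed. The authors deposited counts, as whole numbers of reads on 21960 genes per library, without normalization or pooling. Libraries were stranded and reads were processed with docker4seq per the paper, and RNA was poly(A)-selected per the labels. The submitters' processing notes list STAR 2.5, RSEM and mm10, and the paper names GRCm39. The annotation release and the strand setting of the counting are not stated.

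The members and lists were chosen with earlier results of these data known. In R 4.3.3, genes were filtered with filterByExpr and scaled by TMM, and 11800 were tested by edgeR 4.0.16 (quasi-likelihood) for condition alone, with Benjamini-Hochberg adjustment and a threshold of 0.05. SE was computed as the size of the log2 fold change over the square root of F. CPM was computed on TMM-adjusted library sizes. Ratios within a library were compared by the exact permutation test. The procedure was tested on simulated data. The common coefficient of biological variation was 4.57%. Alternatives were DESeq2 1.42.0, RLE factors, no filter, a minimum of 10 reads in all libraries, limma-voom (limma 3.58.1), leaving out each library, a replicate block and thinning to the smallest library.

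Besides the members, the genes named were the called genes with the 3 largest decreases and 3 largest increases of a list, Mcm2 to Mcm7 as a range, Srcin1 and, for Dnmt1, Uhrf1 and Hells, the 3 genes of closest profile. Some genes that this rule takes are not reported here. Mat2a, Ehmt1, Sycp1 and Dnmt3l were chosen otherwise, with their values known. Gene positions and promoters are from RefSeq, GRCm38.p6, and transcript lengths, chromosomes and overlapping genes from GENCODE vM39 by Ensembl identifier. Libraries of the same group differed by a mean chi-square of 1.75 to 10.7 over genes, where sampling noise gives 1, so none was a copy of another.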

Additional observations from a re-analysis of the deposited data

How the results depend on the processing

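In each of 13 alternative settings 6 members were called lower, 4 higher and 2 by at least 1 log2 unit, as in the report. The number of genes called lay between 7851 and 8716 (8388 in the report), and of the listed pathway genes 34 to 41 were called lower and 20 to 25 higher. Dnmt3b had the widest range of log2 fold changes among the members relative to its size, −0.74 to −0.52 (largest edgeR, DESeq2 or limma adjusted p = 0.0074), that of Hells ran from −1.54 to −1.43 and that of Tet2 from 1.17 to 1.26. Thinning to the smallest library left the calls of the members in place. For germline and imprinted genes with few reads, low expression and limited depth were not separated. Replicate numbers are shared by the groups, but same-numbered libraries did not deviate together (correlations −0.0299, −0.106 and −0.0573). With the number as a replicate block 8034 genes were called, 8009 of them also without it, with 6 members lower and 4 higher. Ratios kept their direction when any library was left out, but with 3 against 2 libraries the smallest exact p is 0.2. The ratio of Dnmt3b to Mcm2 to Mcm7 rested most on a single library, at 0.43 without p140Cap replicate 3.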

Other observations

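The profile of 3 members over the 6 libraries (log2 CPM minus the gene's mean) was compared with 9586 genes of at least 3 mean log2 CPM by root mean square distance in log2 units, as a description with no test. Closest to Dnmt1 were Sf3a1 (0.0114), a splicing factor subunit, Fads1 (0.0208), a fatty acid desaturase, and Ddx39b (0.0215), an RNA helicase of mRNA export. Among the genes closest to Uhrf1 were Tbrg4 (0.0241) and Ppp1r8 (0.0266). Closest to Hells were Fanca (0.0298), of the Fanconi anemia pathway, Dkc1 (0.0397), the pseudouridine synthase dyskerin, and Cytl1 (0.0426).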
